A study of Mus musculus with 6 samples.

Results

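The EGF receptor family and its ligands were examined in corneal epithelial cells of the mouse as 10 named genes, chosen by gene symbol and role from a table of 17784 genes. They were 6 ligands (*Areg*, *Ereg*, *Hbegf*, *Btc*, *Tgfa* and *Epgn*), 3 receptors (*Egfr*, *Erbb2* and *Erbb3*) and the feedback inhibitor *Errfi1*. All 10 genes passed the filter on low counts and were among the 12999 genes tested. Transcript levels were read by bulk RNA sequencing in 3 control samples, titled WT and drawn as *Ptch1 f/f* by the study, and in 3 samples from Prrx1-creERT;Ptch1 mice, here called Ptch1-ablated. The mice of both groups were given 3 doses of tamoxifen (TAM), and the labels give an age of 10 weeks and a treatment span of 2 months for all 6 samples. The labels do not say whether this age is that at the first dose or at collection, and as an age at collection it would not match the later collection drawn in the study's scheme. *Ptch1* encodes the receptor that holds Hedgehog signalling in check, and both of its alleles are floxed in the ablated mice. The Prrx1-CreERT driver, active only once tamoxifen is given, was used to reach keratocytes and other ocular mesenchyme, so the cells sequenced here were neighbours of the targeted cells and not the intended target. The samples are taken as separate animals because the study calls them biological replicates, whereas the labels give only numbers, so the p values measure the spread between these samples. The sex of each sample and any pooling of animals are not given in the sources used here.

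The ligands of the EGF receptor are made as membrane-bound precursors, and metalloproteinases cut the active growth factor from the cell surface. Binding of a ligand brings receptors together in pairs, which activates their kinase domains and the RAS-MAP kinase and PI3 kinase cascades. ERBB2 has no known ligand of its own and serves as a partner, whereas ERBB3 binds neuregulins and has a weak kinase. ERRFI1, also called MIG6, binds the kinase domain of the receptor and shuts it down, and its gene is itself switched on by receptor signalling. In the corneal epithelium the pathway is known for driving cell migration and proliferation during wound closure. The comparison asked which of its parts differed in epithelium lying on *Ptch1*-ablated stroma.

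The libraries were of nearly equal depth, with 20296741 to 20625813 expected counts each. Along the first principal component, which held 58.1% of the variance, the controls lay between -33.7 and -26.5 and Ptch1-ablated replicates 2 and 3 at 18.3 and 19.1. Ptch1-ablated replicate 1 stood apart at 51.7. *Ptch1* itself read 7.31, 9.70 and 10.20 TPM (RSEM's measure of transcript abundance, scaled for gene length and depth) in control replicates 1 to 3 and 5.28, 6.33 and 7.01 TPM in Ptch1-ablated replicates 1 to 3 (edgeR log2 fold change -0.51, adjusted p = 0.0401). These epithelial values do not measure the deletion, which was directed at mesenchymal cells. *Prrx1* was low in both groups, at 0.36 to 4.66 TPM in controls and 0.05 to 0.78 TPM in Ptch1-ablated samples.

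Of the 10 genes, *Areg* and *Errfi1* were called higher in Ptch1-ablated epithelium and 0 were called lower. A call required an adjusted p of at most 0.05 in edgeR's quasi-likelihood test, corrected by Benjamini-Hochberg over all tested genes, and a fold change of at least 2. Over all tested genes, 2.34% were called higher and 0.892% lower. Without the minimum fold *Hbegf* was added to the higher genes, against 7.61% of tested genes higher and 6.41% lower by that rule. The normalised counts of the groups did not overlap for 5 of the 10 genes, all with the ablated group above (*Areg*, *Hbegf*, *Tgfa*, *Erbb3* and *Errfi1*). Over all tested genes the share without overlap was 19.7% with the ablated group above and 20.3% with it below. DESeq2 and limma-voom also called 0 of the 10 genes lower.

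**Figure D1:**
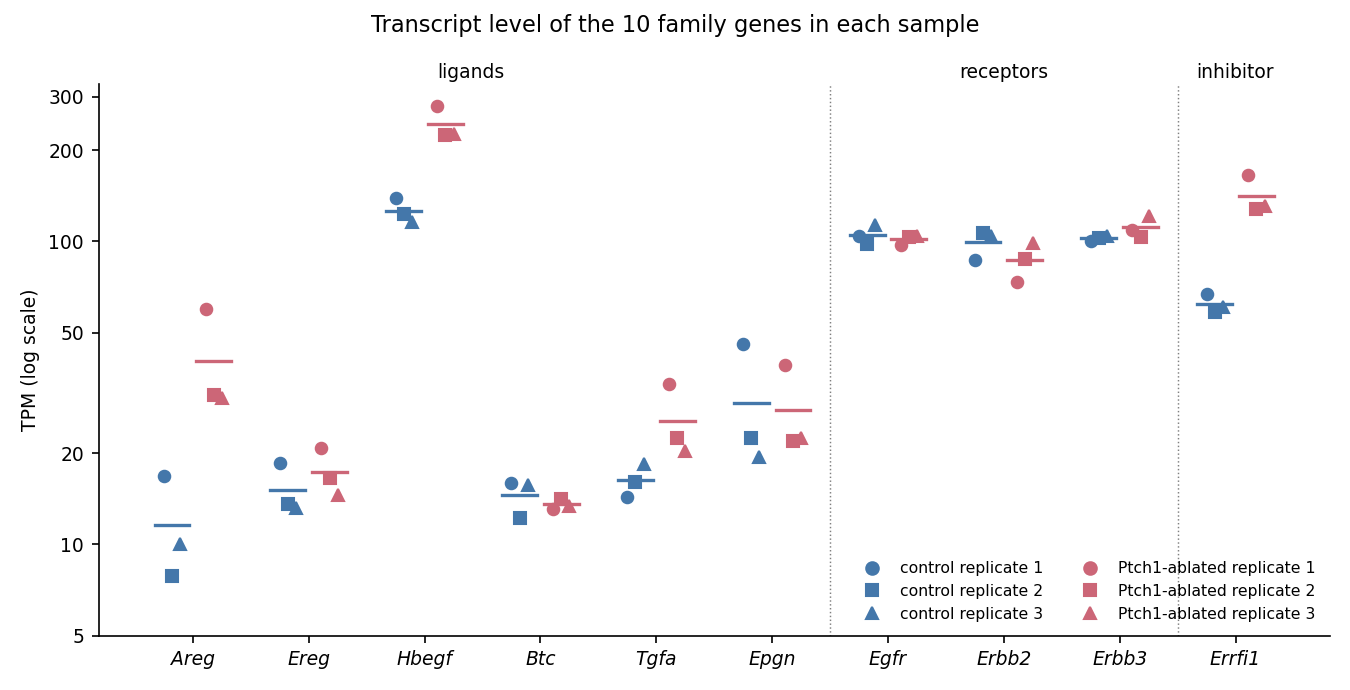
TPM of each of the 10 genes (vertical axis, log scale) in the 3 control (blue) and 3 Ptch1-ablated (red) samples, with 1 point a sample, a marker shape for each replicate number and lines at the group means. *Areg*, *Hbegf* and *Errfi1* stand higher in every Ptch1-ablated sample than in any control, whereas the groups overlap for *Egfr* and *Erbb2*.

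*Areg*, *Hbegf* and *Tgfa* were the ligands whose groups did not overlap. *Areg* (gene ID 11839) encodes amphiregulin, a low-affinity ligand of EGFR made by many epithelia. It was at 16.87, 7.84 and 10.03 TPM in control replicates 1 to 3, and at 59.69, 31.05 and 30.52 TPM in Ptch1-ablated replicates 1 to 3. The lowest ablated sample was above the highest control, and replicate 1 was the highest of its group on both sides. The normalised count rose from 128 ± 56.0 to 463 ± 213 (mean ± SD, n = 3 in each group), which was a fold change of 3.60 with a 95% interval of 1.93 to 6.73 (edgeR log2 fold change 1.85, SE 0.39, adjusted p = 0.0256). Leaving out control replicate 2 or control replicate 3 ended the call, with edgeR adjusted p values of 0.102 and 0.0738 and log2 fold changes of 1.62 and 1.74. Because the samples are bulk epithelium, more cells of an *Areg*-expressing kind and more *Areg* RNA per cell cannot be told apart.

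*Hbegf* (gene ID 15200) encodes heparin-binding EGF-like growth factor, a ligand known from corneal wound healing. It had the highest TPM of the 6 ligands in all 6 samples. It was at 138.90, 123.14 and 116.04 TPM in control replicates 1 to 3, and at 279.75, 225.16 and 225.91 TPM in Ptch1-ablated replicates 1 to 3. All ablated samples were above all controls. The normalised count was 2772 ± 340 in controls and 5521 ± 958 in Ptch1-ablated samples (mean ± SD, n = 3 each). The fold change of 1.99 (95% interval 1.59 to 2.49) fell just short of the minimum of 2, so *Hbegf* was not called although its edgeR adjusted p was 0.0103 (log2 fold change 0.99, SE 0.14). It passed the minimum, with log2 fold changes of 1.09, 1.05 and 1.08, when control replicate 1, Ptch1-ablated replicate 2 or Ptch1-ablated replicate 3 was left out.

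*Tgfa* (gene ID 21802) encodes transforming growth factor alpha, a high-affinity EGFR ligand of keratinocytes. Its levels were 14.31, 16.05 and 18.45 TPM in control replicates 1 to 3, and 33.74, 22.47 and 20.28 TPM in Ptch1-ablated replicates 1 to 3. The groups did not overlap, but Ptch1-ablated replicate 3 lay close to control replicate 3, and Ptch1-ablated replicate 1 was well above both other ablated samples. The edgeR log2 fold change was 0.69 (SE 0.22, adjusted p = 0.0697), which did not pass the test, and it was 0.40 without Ptch1-ablated replicate 1.

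*Ereg*, *Epgn* and *Btc* overlapped between the groups and did not pass the test. *Ereg* (gene ID 13874), which encodes epiregulin, was at 18.58, 13.57 and 13.17 TPM in control replicates 1 to 3 and at 20.84, 16.53 and 14.58 TPM in Ptch1-ablated replicates 1 to 3 (edgeR log2 fold change 0.24, 95% interval -0.24 to 0.72, adjusted p = 0.449). *Epgn* (gene ID 71920), which encodes epigen, read 45.95, 22.47 and 19.41 TPM in control replicates 1 to 3 and 38.99, 22.01 and 22.48 TPM in Ptch1-ablated replicates 1 to 3. Replicate 1 was the high sample of each group for *Epgn*, and the edgeR log2 fold change of -0.03 carried a wide 95% interval of -0.94 to 0.87 (adjusted p = 0.963). *Btc* (gene ID 12223), which encodes betacellulin, was at 15.96, 12.21 and 15.66 TPM in control replicates 1 to 3 and at 13.13, 14.18 and 13.44 TPM in Ptch1-ablated replicates 1 to 3. The ablated samples lay inside the range of the controls for *Btc* (edgeR log2 fold change -0.07, 95% interval -0.36 to 0.22, adjusted p = 0.738).

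The order of the ligands by level changed for *Areg*. By mean TPM in the controls the order was *Hbegf* (126), *Epgn* (29.3), *Tgfa* (16.3), *Ereg* (15.1), *Btc* (14.6) and *Areg* (11.6). *Areg* was thus last of these listed ligands by its mean in control epithelium, although *Tgfa*, *Ereg*, *Btc* and *Areg* overlapped from sample to sample. In the Ptch1-ablated group the order was *Hbegf* (244), *Areg* (40.4), *Epgn* (27.8), *Tgfa* (25.5), *Ereg* (17.3) and *Btc* (13.6). Here *Areg* was second by its mean, with samples that overlapped those of *Epgn* and *Tgfa*.

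*Areg* lies in a cluster of ligand genes on chromosome 5, which in the RefSeq order runs *Mthfd2l*, *Epgn*, *Ereg*, *Areg*, *Btc*, *Parm1*. Within this row *Areg* alone was called. The flanking genes *Mthfd2l* and *Parm1* had edgeR log2 fold changes of -0.32 and 0.24. Against its neighbour *Ereg*, the TPM of *Areg* was 0.908, 0.578 and 0.762 times as high in control replicates 1 to 3 and 2.86, 1.88 and 2.09 times as high in Ptch1-ablated replicates 1 to 3. *Areg* was therefore below *Ereg* in every control sample and above it in every Ptch1-ablated sample.

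None of the 3 receptors passed the test. *Egfr* (gene ID 13649), the receptor for all 6 ligands, was at 104.23, 98.32 and 112.93 TPM in control replicates 1 to 3 and at 97.18, 103.21 and 104.36 TPM in Ptch1-ablated replicates 1 to 3. The groups overlapped, and the fold change of 0.999 had a 95% interval of 0.895 to 1.12 (edgeR log2 fold change -0.00, SE 0.07, adjusted p = 0.994). *Erbb2* (gene ID 13866), the partner without a ligand, read 86.85, 106.94 and 104.18 TPM in control replicates 1 to 3 and 73.64, 87.77 and 98.88 TPM in Ptch1-ablated replicates 1 to 3. The mean was lower in the ablated group, but the samples overlapped and the interval of the fold change, 0.766 to 1.05, included 1 (edgeR log2 fold change -0.16, adjusted p = 0.292).

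*Erbb3* (gene ID 13867), the neuregulin receptor, was at 100.27, 102.60 and 104.60 TPM in control replicates 1 to 3 and at 109.00, 103.77 and 121.42 TPM in Ptch1-ablated replicates 1 to 3. These TPM values overlapped, while the normalised counts (5712 to 5815 in controls, 5985 to 6689 in ablated samples) did not. The fold change was 1.12 (95% interval 1.00 to 1.24), with an edgeR adjusted p of 0.143. Of the 3 receptors 0 were called by edgeR, DESeq2 or limma-voom.

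*Errfi1* (gene ID 74155), the feedback inhibitor, was called with the smallest adjusted p of the 10 genes. It was at 67.04, 58.30 and 60.69 TPM in control replicates 1 to 3 and at 165.27, 128.17 and 130.96 TPM in Ptch1-ablated replicates 1 to 3. Controls were close together, all ablated samples were well above them, and Ptch1-ablated replicate 1 was again the highest. The normalised count rose from 1758 ± 176 to 4135 ± 787 (mean ± SD, n = 3 each), a fold change of 2.35 with a 95% interval of 1.88 to 2.95 (edgeR log2 fold change 1.23, SE 0.14, adjusted p = 0.00717). Per unit of *Egfr* TPM, *Errfi1* was at 0.643, 0.593 and 0.537 in control replicates 1 to 3 and at 1.70, 1.24 and 1.25 in Ptch1-ablated replicates 1 to 3. *Errfi1* was thus below its target receptor in every control and above it in every ablated sample.

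**Figure D2:**
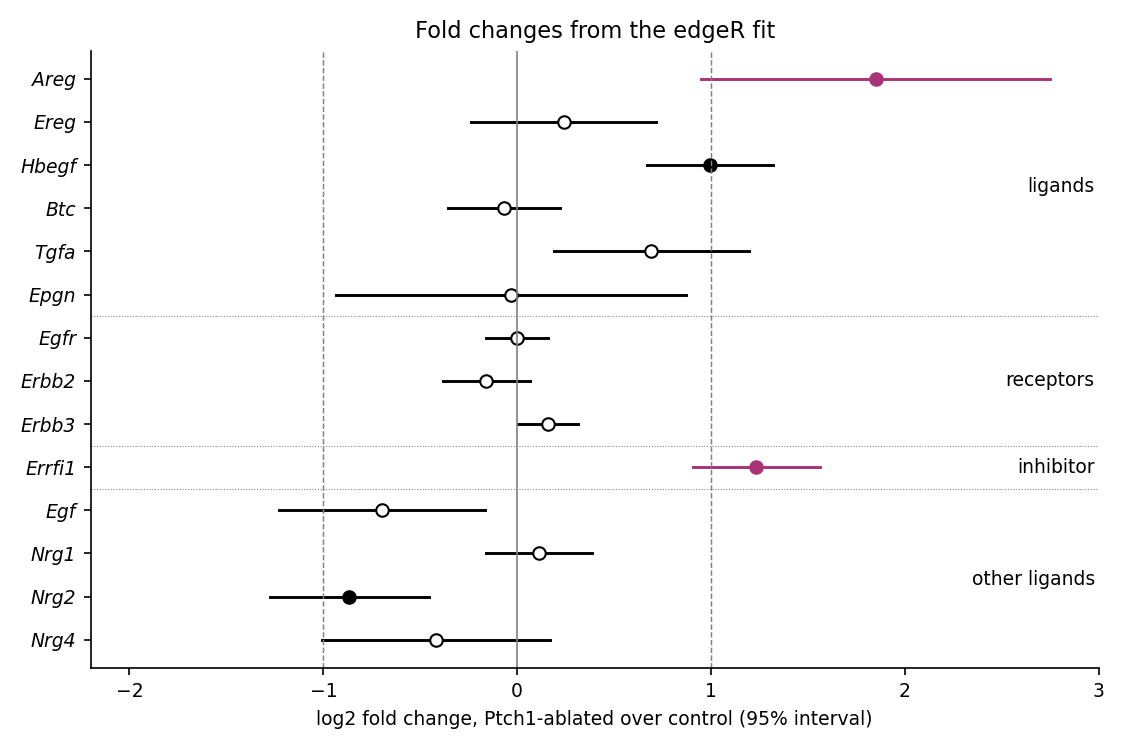
log2 fold change (horizontal axis, Ptch1-ablated over control, edgeR) of the 10 genes and of the 4 other tested ligand genes, each as a point with its 95% interval as a line; filled points have an adjusted p of at most 0.05, coloured ones were also called, and dashed lines mark a fold change of 2. *Areg* and *Errfi1* pass both thresholds, *Hbegf* lies at 0.99, and the intervals of *Egfr*, *Erbb2*, *Ereg*, *Btc* and *Epgn* include 0.

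The promoters of *Areg* and *Errfi1*, the called genes of the family, are shown because each had a window that held both short elements marked below. Any part of these elements in the higher levels of the genes was not tested. RefSeq (GRCm38.p6) gave a promoter window for 7 of the 10 genes, in 8 windows, and the 250 bases before each start were searched on both strands. *Hbegf*, *Ereg* and *Erbb3* had no window and were not searched. The 150 bases that end just before the start are printed 5′ to 3′ on the gene's strand. Capitals mark TGACGTCA, the cAMP response element bound by CREB and ATF proteins, and TATAAA, the TATA box. The *Errfi1* window, chr4:150854920-150855069 on the plus strand, belongs to 1 of its 2 annotated starts, and the *Areg* window is chr5:91139449-91139598 on the plus strand.
*Errfi1*: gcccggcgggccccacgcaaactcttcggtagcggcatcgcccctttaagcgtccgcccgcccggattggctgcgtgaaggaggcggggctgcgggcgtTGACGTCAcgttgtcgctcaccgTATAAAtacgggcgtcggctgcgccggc
*Areg*: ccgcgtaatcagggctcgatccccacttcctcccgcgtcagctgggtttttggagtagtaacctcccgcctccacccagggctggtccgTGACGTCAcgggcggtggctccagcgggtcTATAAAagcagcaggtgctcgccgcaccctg

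In these windows TGACGTCA began 61 bases before the start of *Areg* and 51 bases before the start of *Errfi1*, and TATAAA began 31 and 28 bases before them. The window of the other annotated *Errfi1* start held neither TGACGTCA nor TATAAA. TGACGTCA was in 0 of the windows of the 5 other genes searched (*Btc*, *Tgfa*, *Epgn*, *Egfr* and *Erbb2*), and TATAAA was also in that of *Epgn*. TGANTCA, a loose form of the AP-1 element with N as any base, was in 0 of the 8 windows. Over all 32851 RefSeq promoter windows, 1.55% held TGACGTCA, 12.4% held TATAAA, 6.75% held TGANTCA and 0.119% held both TGACGTCA and TATAAA. The motifs were picked after the sequences were seen, and a match describes the letters in the window and not binding of a factor.

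The ligands were then set against the receptors. Of the 6 ligands, 1 was called higher, 2 were higher at any fold and 3 did not overlap, with the ablated group above. Over all tested genes the matching shares were 2.34%, 7.61% and 19.7%. The median edgeR log2 fold change of the ligands was 0.47. Without Ptch1-ablated replicate 1 the ligand median was 0.22. The median of the 3 receptors was -0.00, and the median of all tested genes was -0.01. The summed TPM of the ligands was 251, 195 and 193 in control replicates 1 to 3 and 446, 331 and 327 in Ptch1-ablated replicates 1 to 3. The groups of ligand sums did not overlap, with 213 ± 32.7 in controls and 368 ± 67.5 in ablated samples (mean ± SD, n = 3 each) and a ratio of means of 1.73. The receptor sums were 291, 308 and 322 TPM in control replicates 1 to 3 and 280, 295 and 325 TPM in Ptch1-ablated replicates 1 to 3. They overlapped, with means of 307 ± 15.2 and 300 ± 22.8 and a ratio of 0.976.

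Ligand TPM per receptor TPM was 0.860, 0.634 and 0.599 in control replicates 1 to 3 and 1.59, 1.12 and 1.01 in Ptch1-ablated replicates 1 to 3. Transcripts of these 6 ligands were therefore fewer than those of the 3 receptors in every control and more in every ablated sample. With *Egf* and the neuregulins added, since *Erbb3* is a neuregulin receptor, the ratio was 1.05, 0.811 and 0.788 in control replicates 1 to 3 and 1.75, 1.31 and 1.15 in Ptch1-ablated replicates 1 to 3. The groups still did not overlap, but control replicate 1 was then above 1. *Hbegf* and *Areg* carried most of this. Of the difference of 155 TPM between the mean ligand sums, *Hbegf* gave 118 TPM (75.7%) and *Areg* 28.8 TPM (18.6%). The share of *Areg* in ligand TPM was 6.73%, 4.01% and 5.20% in control replicates 1 to 3 and 13.4%, 9.37% and 9.33% in Ptch1-ablated replicates 1 to 3. The share of *Hbegf* overlapped between the groups, at 55.4% to 63.1% in controls and 62.7% to 69.0% in ablated samples.

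**Figure D3:**
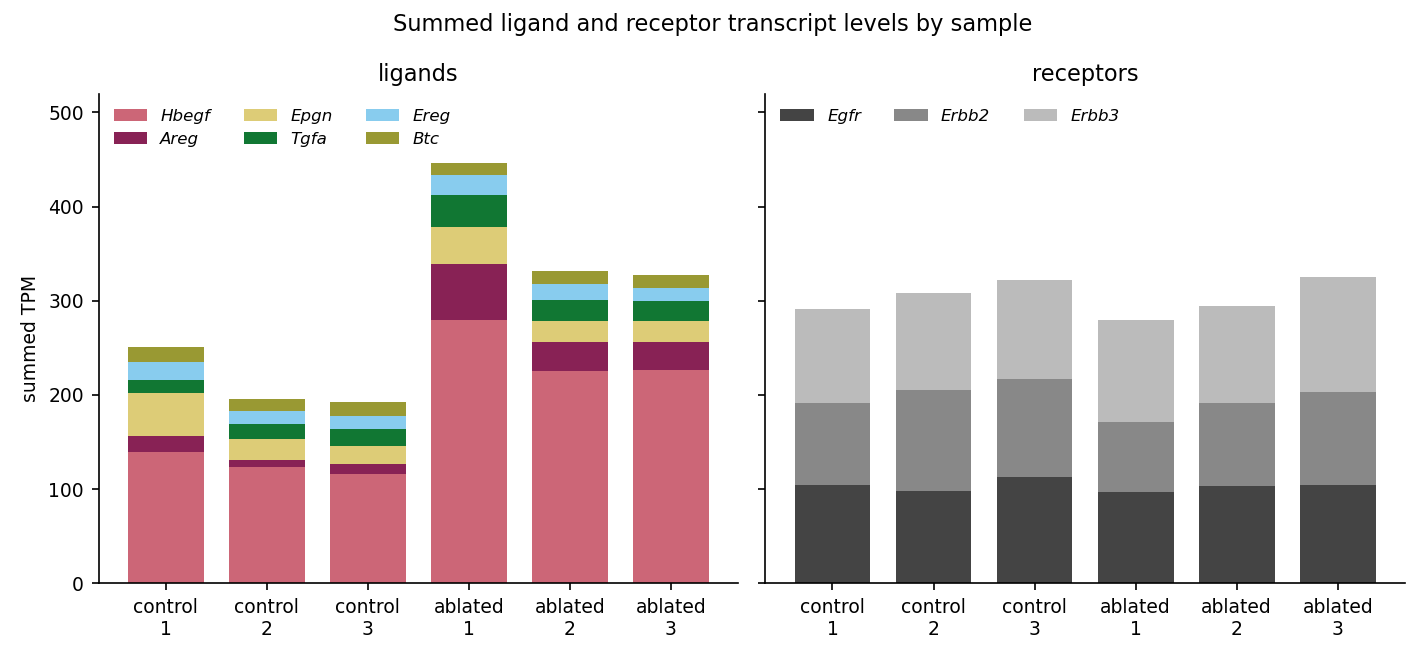
Summed TPM (vertical axis) of the 6 ligands (left) and the 3 receptors (right) in each of the 3 control and 3 Ptch1-ablated samples, as bars stacked by gene. The ligand bars separate the groups (193 to 251 against 327 to 446 TPM), mostly through *Hbegf* and *Areg*, and the receptor bars overlap.

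Of the other genes of the family, *Nrg2* alone passed the test, and it was lower. *Egf*, which encodes the founding ligand, was at 2.60, 4.15 and 3.35 TPM in control replicates 1 to 3 and at 1.57, 2.50 and 2.01 TPM in Ptch1-ablated replicates 1 to 3, all ablated samples being below all controls (edgeR log2 fold change -0.70, SE 0.23, adjusted p = 0.0781). *Nrg2*, which encodes a neuregulin ligand, was at 18.32, 21.09 and 20.93 TPM in control replicates 1 to 3 and at 7.94, 14.41 and 11.48 TPM in Ptch1-ablated replicates 1 to 3. It fell by 0.87 on the log2 scale (SE 0.18, edgeR adjusted p = 0.0243) without overlap, short of the minimum fold. *Nrg1* read 25.95 to 34.27 TPM in controls and 28.96 to 35.28 TPM in ablated samples, which overlapped (edgeR log2 fold change 0.11, adjusted p = 0.542), and *Nrg4* had an edgeR log2 fold change of -0.42 (adjusted p = 0.282). *Erbb4*, the remaining receptor of the family, had 1, 0 and 1 counts in control replicates 1 to 3 and 0 counts in each Ptch1-ablated sample, and *Nrg3* had at most 2.07 expected counts in any sample. Both were under the floor of 3 counts, so a difference was not detectable at this depth. Of the 4 tested genes 0 were called by edgeR, DESeq2 or limma-voom.

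Genes that handle the ligands and pass on the signal were counted by role. Over all tested genes 2.34% were called higher and 0.892% lower, and 1 call in so short a list says little. Of 10 tested sheddases and their partners, the proteins that cut ligands free, 1 was called higher and 0 lower, and the median edgeR log2 fold change was 0.06. The called gene was *Adam8*, a metalloproteinase best known from immune cells and activated epithelia, at 0.50, 0.75 and 0.93 TPM in control replicates 1 to 3 and at 7.90, 1.97 and 3.34 TPM in Ptch1-ablated replicates 1 to 3. It was low in all samples, with Ptch1-ablated replicate 1 the highest (edgeR log2 fold change 2.23, adjusted p = 0.0256). *Adam17*, the main sheddase of *Areg*, *Hbegf* and *Tgfa* products, read 42.49 to 50.27 TPM in controls and 41.36 to 47.84 TPM in ablated samples (edgeR log2 fold change -0.01, adjusted p = 0.931). *Adam10*, the main sheddase of betacellulin, had an edgeR log2 fold change of 0.20 (adjusted p = 0.139), and *Adam15* fell by 0.40 on the log2 scale (edgeR adjusted p = 0.0314). DESeq2 called 1 sheddase higher and limma-voom 0.

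Of 26 adaptors and transducers, from GRB2 and RAS to the MAP kinases and AKT, 1 was called higher and 0 lower. The shares over all tested genes were 2.34% and 0.892%. The transducers had a median edgeR log2 fold change of 0.02. The called gene was *Gab2*, a docking adaptor, at 0.31, 0.49 and 0.41 TPM in control replicates 1 to 3 and at 2.27, 1.78 and 1.68 TPM in Ptch1-ablated replicates 1 to 3. All ablated samples were above all controls at a low level (edgeR log2 fold change 2.29, adjusted p = 0.00647). *Stat3*, *Nras* and *Shc1* also passed the test at smaller edgeR log2 fold changes of 0.37, 0.33 and 0.25. Of 20 further negative regulators 1 was called higher and 0 lower, with a median of -0.06 (2 called higher by DESeq2 and 1 by limma-voom). It was *Spred3*, an inhibitor of RAS signalling, at 0.11 to 0.18 TPM in controls and 0.56 to 0.66 TPM in ablated samples (edgeR log2 fold change 2.22, adjusted p = 0.0123). *Spred3* was very low, with 4 to 7 expected counts in controls and 20 to 25 in ablated samples. *Lrig3* fell by 0.63 on the log2 scale (edgeR adjusted p = 0.0401), and *Lrig1*, which promotes loss of the receptor, was at 130.22, 153.25 and 141.60 TPM in control replicates 1 to 3 and 78.09, 122.12 and 106.00 TPM in Ptch1-ablated replicates 1 to 3 (edgeR adjusted p = 0.0747).

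Genes known to rise after stimulation of the EGF receptor, which other stimuli induce too, moved in both directions. Of 15 tested, 5 were called higher and 0 lower, against 2.34% and 0.892% of all tested genes. The list was chosen with earlier results of these data known. Its median edgeR log2 fold change was 0.91. DESeq2 called 7 higher and limma-voom 5. The called genes were *Egr1* (1.52), *Ier3* (1.46), *Fos* (1.26), *Dusp5* (1.17) and *Klf6* (1.12), with these edgeR log2 fold changes and adjusted p values from 0.0171 to 0.0252. *Ier3*, an early response gene, was at 175.69, 158.87 and 143.15 TPM in control replicates 1 to 3 and at 602.03, 336.93 and 325.06 TPM in Ptch1-ablated replicates 1 to 3. *Dusp5*, which encodes a phosphatase of ERK, was at 84.80 to 132.31 TPM in controls and 205.32 to 287.39 TPM in ablated samples. Neither overlapped between the groups. *Myc*, *Phlda1* and *Mcl1* rose by less than the minimum fold (edgeR log2 fold changes of 0.91, 0.60 and 0.48). *Ccnd1*, which encodes cyclin D1, fell by 0.56 on the log2 scale (edgeR adjusted p = 0.0267). *Dusp6*, *Etv4* and *Etv5*, which are read as targets of sustained ERK signalling, had edgeR log2 fold changes of -0.17, -0.30 and -0.44 and did not pass the test (adjusted p = 0.256, 0.447 and 0.148). *Fosl1* and *Plaur* had the highest values of the list, 4.31 and 2.87, but varied widely between samples and missed the threshold (edgeR adjusted p = 0.0512 and 0.0635).

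**Figure D4:**
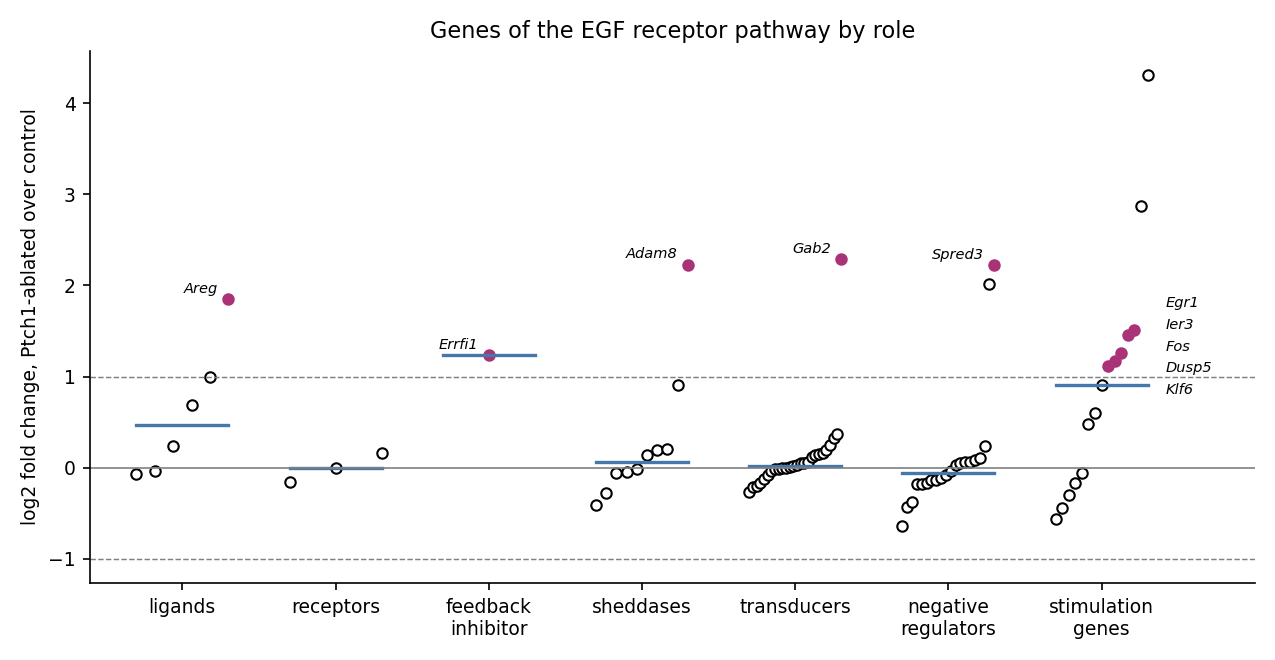
log2 fold change (vertical axis, Ptch1-ablated over control, edgeR) of every tested gene of the pathway by role, 1 point a gene, with filled and named points for called genes, blue lines at the medians and dashed lines at a fold change of 2. The sheddases, transducers and negative regulators centre near 0 with 1 called gene each, and 5 of 15 stimulation genes are called. Over all tested genes 2.34% were called higher.

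Marker genes were read beside these results. The labelled cell type was present in every sample, since 7 of 7 corneal epithelial markers were tested and their summed TPM was 99227 to 107013 in controls and 89582 to 109700 in Ptch1-ablated samples. Within that list *Krt14*, a basal keratin, was called higher (edgeR log2 fold change 2.81) and *Krt12*, the defining corneal keratin, had a log2 fold change of -0.10. Early response genes, which tissue handling can raise, were also higher in the Ptch1-ablated group. All 8 were above 0 with 5 called by edgeR (against 2.34% of all tested genes called higher), 5 by DESeq2 and 6 by limma-voom. Their summed TPM was 905, 1089 and 836 in control replicates 1 to 3 and 1890, 2277 and 2027 in Ptch1-ablated replicates 1 to 3. This sum was highest in replicate 2 of each group, but single genes differed. *Jun* was highest in Ptch1-ablated replicate 1 (420.97 TPM). *Atf3* was highest in control replicate 1 (22.68 TPM) and in Ptch1-ablated replicate 3 (88.84 TPM) within their groups. *Fos* and *Egr1* are in this list and in that of the stimulation genes. Of 4 tested conjunctival markers 0 were called by edgeR or limma-voom and 1 by DESeq2, with 3 at an unadjusted edgeR p under 0.05. The share of all tested genes under that unadjusted cut was not counted. Their summed TPM was 1408 to 2351 in controls and 2202 to 4745 in ablated samples, with a median edgeR log2 fold change of 1.08. The highest sum was in Ptch1-ablated replicate 1, which was also the highest for *Areg*, *Hbegf*, *Tgfa* and *Errfi1*.

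Summed TPM of immune markers was 113 to 151 in controls and 149 to 194 in ablated samples, nearly all of it from *Cd68* and *Itgam*, while *Ptprc*, which defines leukocytes, was at most 0.20 TPM. Stromal markers summed to 9.54, 8.24 and 34.97 TPM in control replicates 1 to 3 and to 6.88 to 9.68 TPM in ablated samples. Control replicate 3 stood apart, with *Col1a2* at 25.98 TPM against 1.69 and 0.91 TPM in control replicates 1 and 2, and it also had the highest *Prrx1*. It is 1 of the 2 control samples without which *Areg* was not called. The defining keratocyte gene *Kera* was at most 0.07 TPM and at 0 in the ablated samples. The part that the early response, conjunctival, immune and stromal markers had in the differences of the ligands and *Errfi1* was not tested. Without Ptch1-ablated replicate 1, *Areg* and *Errfi1* were called higher at edgeR log2 fold changes of 1.41 and 1.07, against 1.85 and 1.23 with all samples. Leaving out that sample does not test the part of these markers.

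The genes with the most similar pattern to the called members were sought over the 6 samples by the Pearson correlation of log2 CPM, as a description. For *Areg* they were *Mdfi* (r = 0.998), *Gm14137* (0.998) and *Rnf24* (0.997), and for *Errfi1* they were *Ncapg2* (0.999), *Has1* (0.999) and *Pip5k1a* (0.998). These 6 points share the group difference and the libraries.

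The fold changes were recomputed with each sample left out in turn. *Errfi1* stayed called in all 6 cases, *Areg* in 4, and *Hbegf* was called in 3. *Hbegf* had an edgeR adjusted p of 0.0650 without control replicate 2 and a log2 fold change of 0.85 without Ptch1-ablated replicate 1. The sign of *Epgn*, *Egfr* and *Btc* depended on the samples kept.

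**Figure D5:**
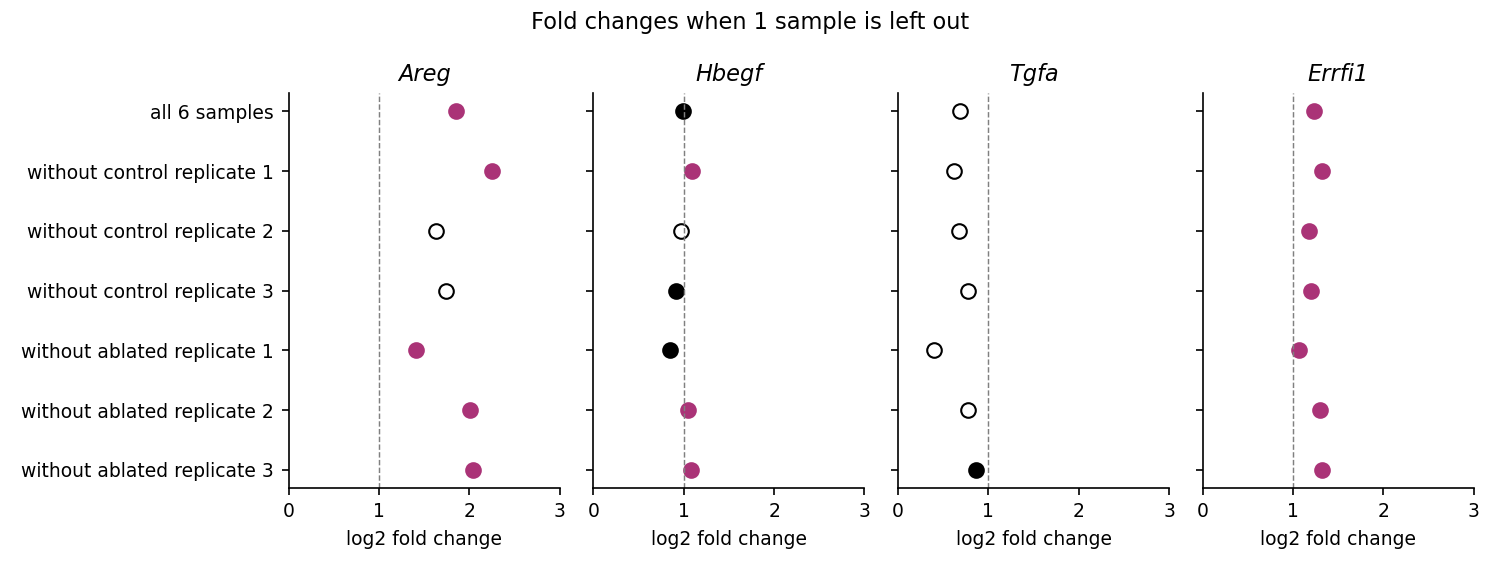
log2 fold change (horizontal axis, Ptch1-ablated over control, edgeR) of *Areg*, *Hbegf*, *Tgfa* and *Errfi1* with all 6 samples and with each sample left out, 1 point a fit; filled points have an adjusted p of at most 0.05, coloured ones were also called, and the dashed line marks a fold change of 2. All points lie above 0, and those of *Errfi1* are called in every fit.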

How the data were processed

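RNA of corneal epithelial cells separated with EDTA was sequenced in 3 control and 3 Prrx1-creERT;Ptch1 samples, grouped by the labels. Per the submitters' processing notes, the authors used Bowtie2 2.2.5, RSEM 1.2.12 and the mm9 genome. The deposited expected counts are RSEM estimates per gene, not scaled for depth, and 39.4% of nonzero values were fractional, as in *Ereg*, *Btc* and *Egfr*, since RSEM splits shared reads. The authors also deposited TPM and FPKM values per sample, scaled for length and depth, and group means. Of these only TPM was used here, without TMM scaling. It served to compare levels between genes, to form sums and ratios in each sample, and in the limma alternatives on log2 TPM.

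Expected counts were rounded to whole numbers and compared by the quasi-likelihood test of edgeR 4.0.16 in R 4.3.3 over the 12999 genes that filterByExpr kept, with TMM scaling (0.960 to 1.03). Normalised counts are CPM on TMM-scaled libraries times the mean library size. SEs are the absolute log2 fold change over the square root of F. The exact permutation test of 3 against 3 samples cannot go below p = 0.1 and was not used. The procedure was tested on simulated data for this comparison (12887 genes, 200 changed by a log2 fold change of 1.5), recovering 87% with 2.79% false calls. The simulated samples had the same spread in both groups and no outlying sample, and the changes were larger than those of *Errfi1* and *Hbegf*. These rates therefore need not hold for the real samples. The floor of 3 counts, which allows for counting error only and not for spread between samples, was 0.145 to 0.148 CPM. Alternatives were limma 3.58.1 (voom, and log2(TPM + 1) or log2(TPM + 0.1)), DESeq2 1.42.0, other size factors and filters, a replicate block and leaving out each sample.

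The members, gene lists and marker lists were chosen with earlier results of these data known. The genes named were all 10 members, the other family genes, called genes of each pathway list, and the 3 genes most correlated with each called member. Further pathway genes, and the motifs, were chosen after their values were seen. Other marker lists (corneal endothelium, vessels, melanocytes, Schwann cells) held 0 called genes by edgeR, DESeq2 or limma-voom. The endothelial and Schwann lists each held 1 gene at an unadjusted edgeR p under 0.05, a cut whose share over all tested genes was not counted. Promoter sequence is from RefSeq GRCm38.p6, not the authors' build, so no other coordinates are given.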

Additional observations from a re-analysis of the deposited data

How the results depend on the processing

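Results were recomputed under 17 alternatives. Of 170 values of single members, 150 kept their direction and side of the threshold, 2 were weaker, 4 stronger and 14 changed sign. The 420 genes called in edgeR (304 higher, 116 lower) became 1822 with no minimum fold (989 higher, 833 lower), 234 with limma on log2(TPM + 1) and 168 with the same and no filter, and 59 to 430 with 1 sample left out, the lowest without control replicate 2. It was 250 without control replicate 1, 254 without control replicate 3 and 273 without Ptch1-ablated replicate 1. The 2 members called higher (*Areg* and *Errfi1*) ranged from 1 to 3 with 1 sample left out, 1 without control replicate 2 or 3. They were 3 with no minimum fold. Members called lower stayed at 0 under all 17 alternatives. The ligand median of 0.47 ranged from 0.22 (without Ptch1-ablated replicate 1) to 0.62. The receptor median of -0.0011 was -0.0478 on log2(TPM + 1), with and without the filter, -0.0482 on log2(TPM + 0.1), and -0.0547 to 0.0319 with 1 sample left out; the cause was not tested. Sign changes among members were all in genes near 0. *Epgn* (-0.03) was 0.021 with limma-voom and -0.40 to 0.48 with 1 sample left out. *Egfr* (-0.0011) was 0.00083 with limma-voom, 0.0027 with RLE size factors, 0.0032 with at least 10 counts in every sample, and -0.0547 to 0.0319 with 1 sample left out. *Btc* (-0.07) was -0.19 to 0.026 with 1 sample left out. *Errfi1* was called under all 17 alternatives (log2 fold changes 1.07 to 1.32). *Tgfa* was never called, although its adjusted p was 0.0088 with DESeq2. Without Ptch1-ablated replicate 3 its edgeR adjusted p was 0.0429, at a log2 fold change of 0.86.

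Over all tested genes, same-numbered samples did not all deviate together from the group means (r = 0.105, -0.0137 and 0.0189). With so few samples these values cannot exclude a pairing. With the replicate block 390 genes were called, of which 352 were shared with the 420, and the members called were again *Areg* (1.84) and *Errfi1* (1.22). *Epgn* was 0.014 and *Egfr* 0.00073 with the block. The edgeR adjusted p was 0.0041 for *Areg* and 0.0886 for *Ereg* with the block, against 0.0256 and 0.449 without it. That of *Tgfa* was higher with the block, at 0.101 against 0.0697.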
